A study of Mus musculus with 6 samples.

Results

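The wild-type (WT) gastrocnemius, the large calf muscle of the mouse hindlimb, is described here by the signal of every named gene on the arrays of 3 WT mice. The WT arrays were chosen by their sample titles and are 3 of the 6 arrays of the series. The other 3 arrays, from transgenic mice, were not used. One array was hybridized per mouse, on the Affymetrix Mouse Gene 2.0 ST array, whose probes lie along the exons of each gene. The WT mice were male and 3 months old, with no treatment labelled. The labels give their strain background as C57, and the study's methods name C57BL/6 as the strain in which the transgenic line was made. Gastrocnemius was collected at room temperature and total RNA was extracted. Per the methods the founders were bred with WT mice, male F1 mice were used, and the mice had free access to chow. Whether the WT arrays came from littermates, how recently the mice had eaten and the hour of collection were not given in the sources used here. The table held 41345 probe sets (groups of probes read together), of which 23521 carried 1 gene symbol, 1820 carried several and 16004 carried none. Taking for each gene the probe set with the highest WT mean gave 22180 named genes.

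Each value is a log2 signal, so equal differences are equal ratios of signal. Values for single mice are given in the order WT replicate 1, 2 and 3, and errors are the standard deviation (SD) of the 3 arrays. The signal of a probe set depends on how well its probes bind as well as on the amount of RNA, and it is averaged over probes, not scaled with the length of the transcript. Orders and differences between genes below are therefore those of probe-set signal. Closely related transcripts, such as those of the myosin heavy chains and of the actins, may also bind each other's probes. With 3 arrays, the number of arrays limits the precision of each mean and SD. No batch was given for the arrays.

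Skeletal muscle contracts when calcium, released from the sarcoplasmic reticulum, binds troponin on the thin filament and lets myosin heads pull on actin. Slow oxidative fibers and the fast fiber types IIa, IIx and IIb are told apart by the myosin heavy chain gene they use, and many other contractile, calcium-handling and metabolic proteins come in a fast or muscle form and a slow or general form. The gastrocnemius of the mouse is known as a mixed muscle in which fast glycolytic fibers prevail. Its fast fibers rely on creatine phosphate, glycogen and glycolysis, and its slow and IIa fibers on mitochondria, myoglobin and fatty acids.

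The 3 arrays had medians of 5.71, 5.88 and 5.81 over all probe sets. WT replicate 2 stood apart by a narrower range of values. The 10th and 90th percentiles of the named genes lay 4.55, 3.84 and 4.31 apart in WT replicates 1, 2 and 3. Across the named genes, which are not independent, Pearson correlations were 0.964 between WT replicates 1 and 2, 0.979 between 1 and 3 and 0.979 between 2 and 3. Bright genes were mostly lowest and dim genes mostly highest in WT replicate 2: it held the lowest value in 85.7% of the 2975 genes with a mean of 8 to 10, and in 13.2% of the 1367 genes below 4. This slope bears on every difference between mice given below.

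**Figure D1:**
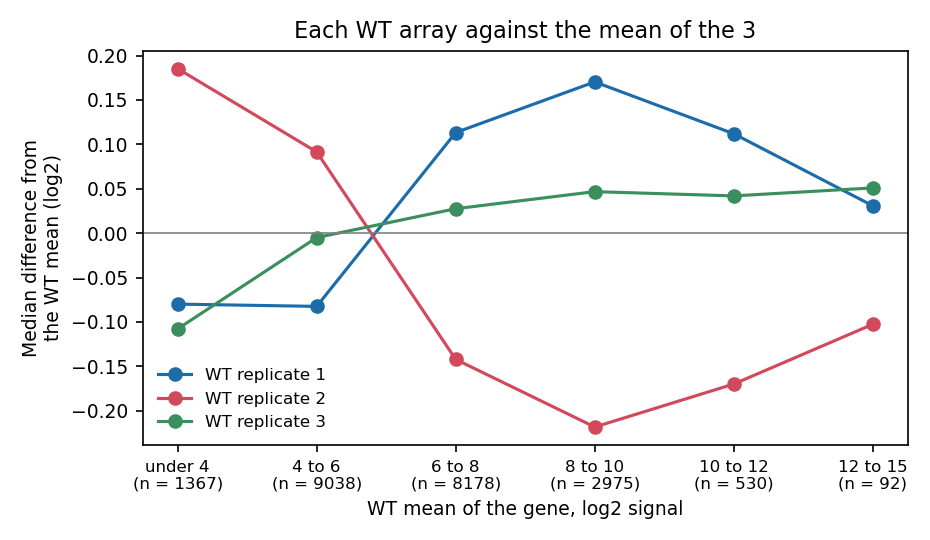
Median difference of each WT array from the mean of the 3 arrays (y axis, log2) for named genes grouped by their WT mean (x axis, log2 signal, number of genes in brackets), 1 line per WT replicate. WT replicate 2 lies at 0.19 above the mean for the dimmest genes and at -0.22 for genes between 8 and 10, while WT replicates 1 and 3 lie above 0 from 6 upward.

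A background level was taken from genes that muscle is not known to use. The 1429 genes of olfactory, vomeronasal and bitter taste receptors, which are proteins of sensory neurons and taste cells, had a median of 4.45, and the 95th percentile of their means, 6.12, was used as the background level. By it 11126 named genes (50.2%) had a mean above background, with 10139 above it on each of the 3 arrays, 9891 on none and 2150 on some. The share of 50.2% stands beside every count of list members above background given below. With the 99th percentile of the receptor genes, at 7.21, 6285 genes were above it. A mean of at least 8 was held by 3597 genes, of at least 10 by 622, of at least 12 by 92 and of at least 13 by 28. The median of all named genes was 6.12. Among genes that RefSeq calls protein coding, 55.4% of 18964 were above the background level, against 14.6% of 1926 long noncoding RNA genes. "Not above background" says that the mean signal was no higher than the 95th percentile of the receptor genes, and not that the gene was off. The receptor genes themselves ranged between 1.58 for Olfr747 and 8.90 for Vmn1r159, and 5 of them reached 8.

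**Figure D2:**
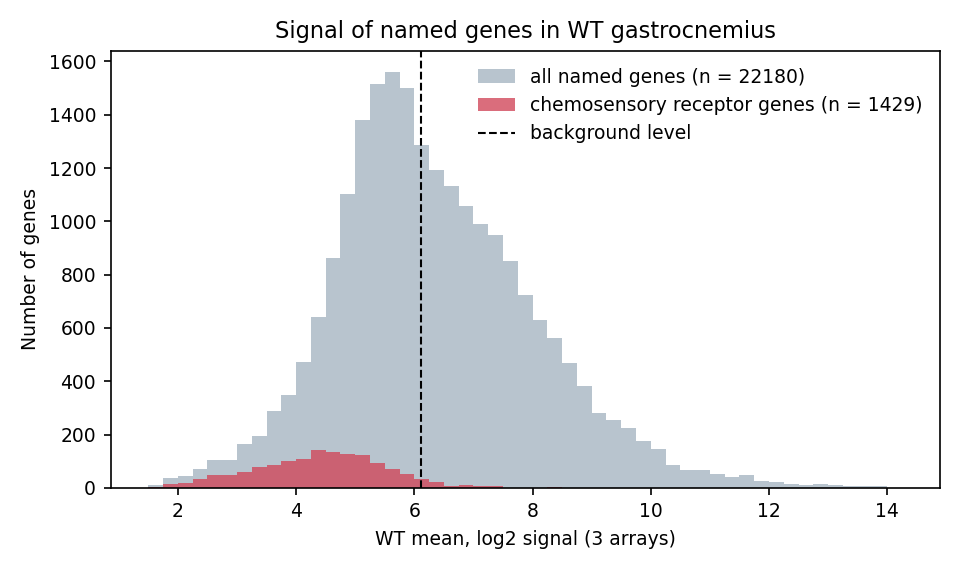
Number of named genes (y axis) by WT mean (x axis, log2 signal, mean of 3 arrays), for all 22180 named genes in grey and the 1429 chemosensory receptor genes in red, with the background level of 6.12 as a dashed line. The receptor genes sit to the left with a median of 4.45, and the named genes have a long right tail that ends at 13.99.

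The marker genes of fast fibers were among the brightest genes of the array. Myh4, the myosin heavy chain of IIb fibers, gave 13.55, 13.34 and 13.57 (mean 13.49 ± 0.12). Atp2a1, the fast calcium pump SERCA1 that returns calcium to the sarcoplasmic reticulum, gave 13.60, 13.46 and 13.63 (mean 13.56 ± 0.09). Pvalb, the calcium buffer parvalbumin of fast fibers, gave 13.10, 12.90 and 13.20 (mean 13.07 ± 0.15). All of these lay among the 30 brightest named genes and were lowest in WT replicate 2. Myh7, the slow myosin heavy chain, was also above background, at 7.93, 8.60 and 8.03 (mean 8.18 ± 0.36), and was highest in WT replicate 2. The labelled tissue thus carried the transcripts of both fiber classes.

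The promoters of these marker genes are shown because they are the start sites of the fast and the slow transcripts that the report turns on. They are RefSeq sequences of mouse build GRCm38.p6, 300 bases of which the last 50 follow the annotated start, 5′ to 3′ on the strand of the gene. Capitals mark CAGCTG, an E-box of the kind that myogenic factors such as MyoD bind and that reads the same on both strands, and TATAAA on either strand (TTTATA on the other), a TATA box. These motifs cannot overlap each other.
Myh4 (chr11:67237562-67237861, plus strand): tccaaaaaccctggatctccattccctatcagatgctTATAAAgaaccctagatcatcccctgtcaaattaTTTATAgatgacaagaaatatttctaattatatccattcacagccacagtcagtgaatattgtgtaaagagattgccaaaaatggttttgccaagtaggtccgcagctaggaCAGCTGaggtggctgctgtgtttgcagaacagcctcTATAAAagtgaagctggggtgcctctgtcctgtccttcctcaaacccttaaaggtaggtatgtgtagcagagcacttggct
Atp2a1 (chr7:126463024-126463323, minus strand): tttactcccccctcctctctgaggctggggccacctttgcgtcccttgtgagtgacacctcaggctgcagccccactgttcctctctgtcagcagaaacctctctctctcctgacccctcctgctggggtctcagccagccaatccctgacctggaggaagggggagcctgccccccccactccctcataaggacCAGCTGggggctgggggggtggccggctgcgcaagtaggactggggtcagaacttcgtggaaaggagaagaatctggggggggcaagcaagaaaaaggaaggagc
Pvalb (chr15:78206351-78206650, minus strand): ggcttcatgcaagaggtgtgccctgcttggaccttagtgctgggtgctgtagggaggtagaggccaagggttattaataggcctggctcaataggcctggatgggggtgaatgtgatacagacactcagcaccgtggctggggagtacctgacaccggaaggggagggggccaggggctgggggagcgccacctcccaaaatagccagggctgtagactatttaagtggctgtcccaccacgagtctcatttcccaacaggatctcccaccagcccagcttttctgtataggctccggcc
Myh7 (chr14:54994577-54994876, minus strand): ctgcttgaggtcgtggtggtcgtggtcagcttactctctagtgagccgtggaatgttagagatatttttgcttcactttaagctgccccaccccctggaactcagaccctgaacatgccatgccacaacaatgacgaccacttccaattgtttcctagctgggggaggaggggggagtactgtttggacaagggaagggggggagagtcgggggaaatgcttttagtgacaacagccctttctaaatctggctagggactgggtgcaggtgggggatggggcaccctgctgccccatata

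Myh4 held 1 E-box, with its first base at position -67 from the annotated start, and 3 matches to TATAAA. Atp2a1 held 1 E-box, at position -55, and no TATAAA. Neither set of letters was in the windows of Pvalb and Myh7. At least 1 CAGCTG was in 18 of the 50 brightest named genes with a promoter in the table (36%), against 16.1% of all 27025 promoters. The share was 31% in the 100 brightest, 20.6% in the 500 brightest and 11% in the 500 dimmest. For TATAAA the shares were 24% of the 50 brightest, 19% of the 100 brightest, 12.2% of the 500 brightest and 36.8% of the 500 dimmest, against 14.2% of all promoters. A match describes the letters of the window and is not a site in use.

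The brightest named genes were those of the mitochondrial genome and of the fast sarcomere. The 30 brightest had means between 12.91 and 13.99. Of these, 9 lie on the mitochondrial genome: ND4, ND3, CYTB, COX1, ND1, ND5, COX3, ND4L and ND2, which encode subunits of respiratory complexes I, III and IV. ND4 was the brightest gene, at 13.95, 14.08 and 13.95 (mean 13.99 ± 0.07). Rn7sk, the small nuclear RNA that holds the elongation factor P-TEFb inactive, followed at 13.89, 13.89 and 13.92 (mean 13.90 ± 0.02). Among the named genes the brightest nuclear gene for a protein was Acta1, skeletal alpha-actin, at 13.64, 13.50 and 13.67 (mean 13.60 ± 0.09). Probe sets with several symbols were left out of this order. The brightest of them, shared by Gapdh and Gm12070, gave 13.95, 13.76 and 13.90 (mean 13.87 ± 0.10), above Acta1. Those that carry the mitochondrial genes ATP6 and ATP8 (13.50 ± 0.13) and COX2 (13.40 ± 0.14) also lay within the range of the 30.

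The sarcomere and its calcium supply gave 8 more of the 30 besides Acta1: Atp2a1, Myh4, Actn3 (the alpha-actinin of fast Z-discs, 13.27 ± 0.13), Myl1 (fast essential light chain, 13.23 ± 0.07), Tnnt3 (fast troponin T, 13.17 ± 0.04), Pvalb, Neb (nebulin, the ruler of the thin filament, 13.05 ± 0.02) and Ckm, the muscle creatine kinase bound to the M-band (13.53 ± 0.12). Energy metabolism gave Eno3, the muscle enolase (13.50 ± 0.14), Gapdh (13.40 ± 0.11), Pygm, the muscle glycogen phosphorylase (13.31 ± 0.12), Car3, the carbonic anhydrase of muscle (13.13 ± 0.08), the ATP synthase genes Atp5md (13.31 ± 0.08) and Atp5b (13.12 ± 0.03), the complex I gene Ndufs7 (13.05 ± 0.06) and the muscle cytochrome oxidase gene Cox6a2 (12.91 ± 0.05). The remaining genes were Eif4a1, a helicase of translation initiation (13.20 ± 0.12), Rps6, a ribosomal protein (13.15 ± 0.13), and Serinc3, a membrane protein (12.91 ± 0.11). Of the 29 pairs of neighbours in this order, 27 differed by less than the larger of their SDs, so the exact order is not fixed. Array signal can level off at the top of its scale, where differences between genes are then compressed.

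Isoform choice within families was read from 35 pairs of a muscle, fast or adult member and another member of its family. In 34 of the 35 pairs the muscle, fast or adult member was brighter in each of the 3 mice, and in 19 the mean difference was 3 or more, with a median difference of 3.91 over the pairs. In 22 pairs the difference was smallest in WT replicate 2. In 5 pairs the other member was not above background, so that its own level is not measured and the difference is that of signal alone. The exception was lactate dehydrogenase.

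Among the 13 myosin heavy chain genes, 9 were above background. The adult fast genes led, with Myh4 at 13.49 ± 0.12, Myh1 (IIx) at 11.43, 12.05 and 11.52 (mean 11.67 ± 0.33) and Myh2 (IIa) at 11.29, 11.80 and 11.21 (mean 11.43 ± 0.32). Myh1 and Myh2 differed by 0.23 ± 0.09, less than the SD of either gene, although Myh1 was the brighter in each mouse. Myh4 exceeded Myh1 by 2.12, 1.29 and 2.04 (mean 1.82 ± 0.46) and Myh7 by 5.62, 4.75 and 5.54 (mean 5.30 ± 0.48). Both differences were smallest in WT replicate 2, the mouse in which Myh1, Myh2 and Myh7 were at their highest. The perinatal gene Myh8 was above background at 6.80 ± 0.46 on its brighter probe set, while its other one, at 5.50 ± 0.19, was not. The embryonic gene Myh3 (4.56 ± 0.25), the extraocular gene Myh13 (5.31 ± 0.18) and the atrial gene Myh6 (5.02 ± 0.22) were not above background. Myh11 of smooth muscle (8.54 ± 0.23) and the nonmuscle gene Myh9 (8.45 ± 0.31) lay above Myh7 by less than the SD of Myh7.

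The fast member was also the brighter in each light chain and troponin pair, and the gap was wider than that of Myh4 over Myh7 in troponin T alone. The fast essential light chain gene Myl1 exceeded the slow Myl3 by 4.42 ± 0.23, and the fast regulatory gene Mylpf exceeded the slow Myl2 by 4.70 ± 0.34. All 3 fast troponins were above 12. The fast over slow difference was 6.12 ± 0.27 for troponin T (Tnnt3 over Tnnt1), 4.74 ± 0.38 for the inhibitory subunit (Tnni2 over Tnni1) and 3.96 ± 0.49 for the calcium-binding subunit (Tnnc2 over Tnnc1). The slow troponins were above background in all mice, and Tnnc1 was the brightest of them at 8.54, 9.27 and 8.80 (mean 8.87 ± 0.37). Tnnt1 was the dimmest at 6.99, 7.30 and 6.85 (mean 7.05 ± 0.23), a mean below the 99th percentile of the receptor genes at 7.21. Cardiac Tnni3 was not above background (5.85 ± 0.19), whereas cardiac Tnnt2 was (6.90 ± 0.15).

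Tropomyosin differed less between its members. Tpm2, the beta-tropomyosin gene, was the brightest of 4 at 11.90 ± 0.07, and Tpm1 exceeded the slow Tpm3 by 2.43 ± 0.36. Acta1 exceeded the cardiac actin gene Actc1 by 2.29 ± 0.42, and Actc1 itself was bright and variable, at 11.61, 10.72 and 11.60 (mean 11.31 ± 0.51). Actc1 was lowest in WT replicate 2. Actn3 exceeded Actn2, the alpha-actinin of all fibers, by 1.41 ± 0.28, and the fast myosin-binding protein gene Mybpc2 exceeded the slow Mybpc1 by 1.66 ± 0.59. The cardiac Mybpc3 was not above background (5.15 ± 0.26). Of the Z-disc and giant protein genes, 22 of 22 measured were above background, with Neb the brightest and Myom3, the myomesin of slow and IIa fibers, the dimmest at 7.51 ± 0.06.

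**Figure D3:**
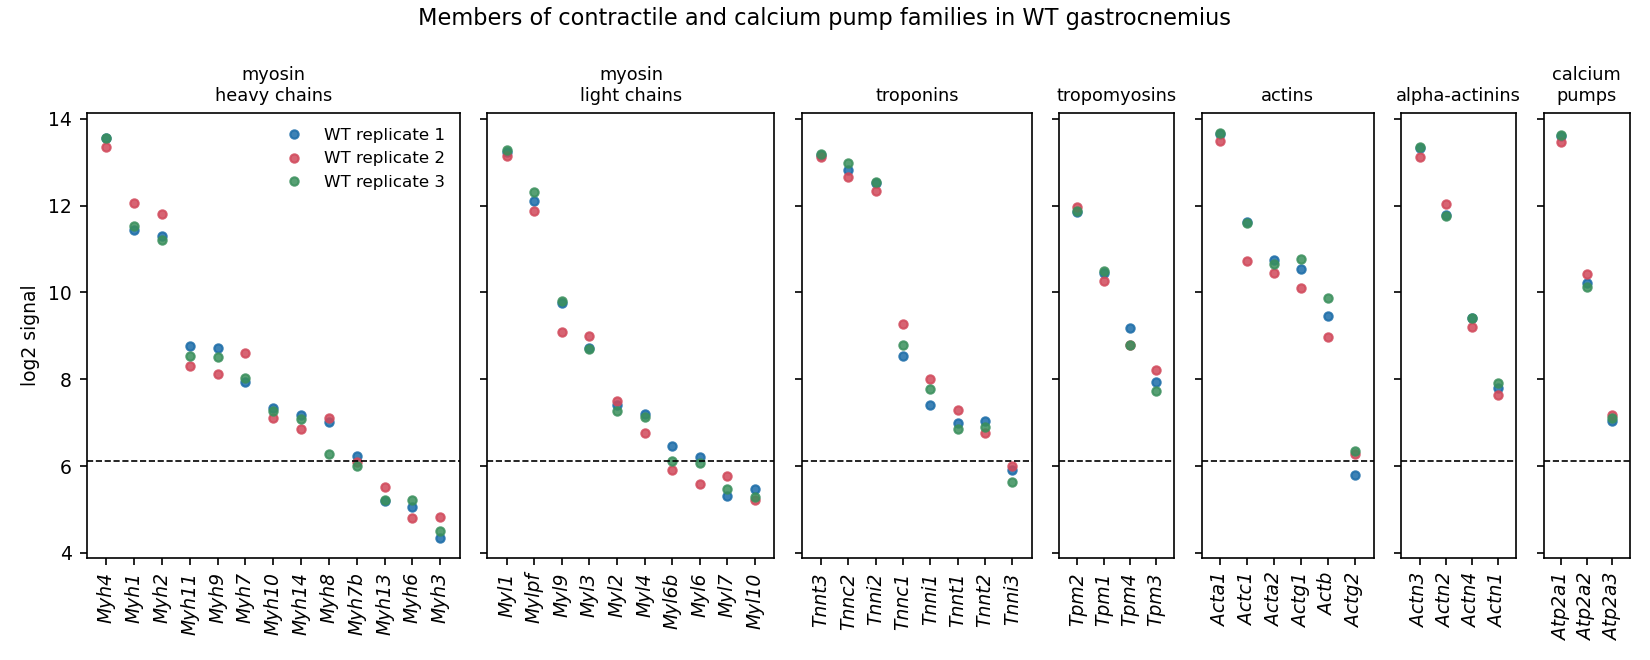
Log2 signal (y axis) of each member of 7 contractile and calcium pump families (x axis, ordered by mean within a family), with 1 point per WT mouse and the background level of 6.12 dashed. Fast or skeletal members such as Myh4, Myl1, Tnnt3, Acta1, Actn3 and Atp2a1 sit above 13, and slow members such as Myh7, Myl3, Tnnc1 and Atp2a2 have their highest point in WT replicate 2.

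Calcium handling was of the fast skeletal form. Atp2a1 exceeded the slow pump gene Atp2a2 by 3.38, 3.04 and 3.49 (mean 3.30 ± 0.23). Casq1, the calcium store protein calsequestrin of fast fibers, exceeded Casq2 by 4.87 ± 0.32. Ryr1, the calcium release channel of skeletal muscle, was at 12.26 ± 0.19, and neither Ryr2 (5.32 ± 0.08) nor Ryr3 (5.23 ± 0.13) was above background. The voltage sensor gene Cacna1s exceeded the cardiac channel gene Cacna1c by 4.88 ± 0.11. Of 17 measured genes of calcium release and buffering, 15 were above background, beside 50.2% of all named genes, and the dimmest was Ryr3.

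Small peptides restrain the calcium pumps. Mrln, which encodes myoregulin, the inhibitor of fast muscle, was at 8.54, 7.97 and 8.34 (mean 8.28 ± 0.29). Pln, phospholamban of heart and slow muscle, was at 7.37, 7.06 and 6.63 (mean 7.02 ± 0.37). Sln, sarcolipin, gave 5.62, 5.70 and 5.01 (mean 5.44 ± 0.38) and was not above background in any of the 3 mice. Among the surface channels, Clcn1, the chloride channel that stabilizes the resting membrane, was the brightest of 5 at 9.12 ± 0.26, and all 5 were above background.

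In the pairs compared, the brighter isozymes of energy metabolism were those named for muscle, except for lactate dehydrogenase. Aldolase was not among the pairs. The muscle gene Aldoa, on a probe set shared with Aldoart1, gave 6.94, 6.71 and 7.05 (mean 6.90 ± 0.18). The adenylate kinase gene Ak1, also in no pair, was at 6.98 ± 0.12. Muscle enolase Eno3 was at 13.50 ± 0.14, while neuronal Eno2 was not above background (5.47 ± 0.15). Ckm exceeded the brain creatine kinase gene Ckb by 5.96 ± 0.16 (3.16 with the mean over probe sets), and in the mitochondrion Ckmt2 was at 11.72 ± 0.11 and Ckmt1 not above background (5.58 ± 0.15). Pygm exceeded Pygb by 6.03 ± 0.05, muscle phosphofructokinase Pfkm exceeded the liver form Pfkl by 5.49 ± 0.08, and AMP deaminase Ampd1 exceeded Ampd3 by 5.19 ± 0.07. These 4 differences were steady between mice, with SDs of 0.05 to 0.16.

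For glycogen synthase, the muscle gene Gys1 was at 10.98 ± 0.17, and the liver gene Gys2 read 6.14, 4.83 and 5.07, with a mean that was not above background. The hexokinase, glucose transporter and mutase pairs lay closer together. Hk2, the hexokinase of insulin-sensitive tissue, exceeded Hk1 by 2.69 ± 0.18, and Slc2a4, the insulin-responsive glucose transporter GLUT4, exceeded Slc2a1 by 2.65 ± 0.17 (4.08 with the mean over probe sets). The mutase Pgam2 exceeded Pgam1 by 2.62 ± 0.35. For lactate dehydrogenase, the muscle gene Ldha gave 8.59, 8.37 and 8.61 (mean 8.53 ± 0.13) and the heart gene Ldhb 9.42, 9.88 and 9.37 (mean 9.56 ± 0.28), so that Ldhb was the brighter in all mice, by the most in WT replicate 2. Ldha and Ldhb were each read by 1 named probe set, and the part of their probes in this order was not tested. Testis forms Pgk2 (3.96 ± 0.24), Gapdhs (5.73 ± 0.12) and Ldhc (5.64 ± 0.17) were not above background.

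Heart and muscle forms of respiratory chain genes were the brighter ones too. Cox6a2 exceeded Cox6a1 by 2.08 ± 0.20, Cox7a1 exceeded Cox7a2 by 1.46 ± 0.02 and Cox8b exceeded Cox8a by 2.56 ± 0.16. The adenine nucleotide carrier Slc25a4 exceeded Slc25a5 by 1.85 ± 0.34, with the largest difference in WT replicate 2. The general members of these pairs were bright as well, with Cox6a1 at 10.83 ± 0.15 and Cox7a2 at 10.83 ± 0.13. Of 33 nuclear genes for complex I subunits, 32 were above background, and the median of the 33 was 9.90.

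Genes of fatty acid and oxygen handling ran across the scale. All 10 measured genes of fatty acid handling had a mean above background, beside 50.2% of all named genes, and 6 of them had a mean of at least 10. The means ran between 6.13 for Fabp1 and 12.01 for Fabp4. Fabp1 read 8.27, 6.23 and 3.90, so it was near the background level in WT replicate 2 and below it in WT replicate 3. Of 5 genes of oxygen and carbon dioxide handling, 4 were above background. Fabp4, a fatty acid binding protein of fat and capillary cells, was at 12.01 ± 0.22, the lipase gene Lpl at 11.70 ± 0.22, the fatty acid transporter gene Cd36 at 11.70 ± 0.18 and the muscle gene Fabp3 at 8.53, 9.19 and 8.85 (mean 8.86 ± 0.33). Mb, the oxygen store myoglobin, gave 10.82, 10.91 and 10.61 (mean 10.78 ± 0.15). Myoglobin and Fabp3 were both highest in WT replicate 2. The dimmer members were Cpt1a (7.89 ± 0.23), the liver form of the enzyme that takes fatty acids into mitochondria, and Fabp5 (6.26 ± 0.18). The carbonic anhydrase gene Car2 was at 7.06 ± 0.23, and Car1 was not above background (4.99 ± 0.25). The only member of the fatty acid list with an SD above 1 was the liver gene Fabp1, described below with the other liver genes.

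The transcription factor genes of muscle had a median of 9.01, against 10.96 for the genes of the Z-disc and giant proteins, and the ranges of these lists overlapped. Of 18 measured myogenic and fiber type regulators, 16 were above background, beside 50.2% of all named genes. Myf6, the myogenic factor of mature fibers, was the brightest at 11.64, 11.23 and 11.25 (mean 11.38 ± 0.23), followed by Mef2a (11.14 ± 0.18) and Mef2c (10.84 ± 0.16). Myod1 was at 9.33 ± 0.25 and Myog at 7.07 ± 0.26, while Myf5 (6.0 ± 0.06) and Pax3 (5.83 ± 0.24), which act in precursor cells, were not above background. Genes tied to the fast program in mice included Tbx15 (10.33 ± 0.21), Eya1 (9.87 ± 0.24) and Sox6 (8.94 ± 0.23). Ppargc1a, the coactivator that drives mitochondrial genes, was at 9.33, 9.16 and 8.76 (mean 9.08 ± 0.29). Its values in the 3 mice spanned 0.57, and it was lowest in WT replicate 3.

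Of 10 measured hindlimb identity genes, 7 were above background, beside 50.2% of all named genes and 18 of all 36 Hox genes. Hoxc10 was the brightest, at 8.55, 7.78 and 8.60 (mean 8.31 ± 0.46), and the other 6 lay between 6.23 and 7.15, below the 99th percentile of the receptor genes at 7.21. Tbx4, the hindlimb T-box gene, was above background at 6.99, 6.36 and 7.02 (mean 6.79 ± 0.37), and Tbx5, its forelimb counterpart, was the dimmest of the list at 4.87, 4.83 and 4.83 (mean 4.84 ± 0.03). Tbx4 lay above Tbx5 in each mouse. Pitx1, which specifies the hindlimb in the embryo, was not above background (5.97 ± 0.18), nor was Hoxd13 (5.29 ± 0.27).

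At the neuromuscular junction 9 of 10 measured genes were above background, beside 50.2% of all named genes. The dimmest of the 9, Lrp4 (6.70 ± 0.27) and Chrnd (6.37 ± 0.22), lay below the 99th percentile of the receptor genes at 7.21. The adult acetylcholine receptor subunit gene Chrne gave 8.34, 7.91 and 8.18 (mean 8.14 ± 0.22) and the fetal subunit gene Chrng 5.60, 5.98 and 5.67 (mean 5.75 ± 0.20), which was not above background. Musk, the receptor kinase that clusters acetylcholine receptors, was the brightest at 9.03 ± 0.37. Of 13 atrophy and myokine genes, 11 were above background, beside the same 50.2%. They were led by the ubiquitin ligase gene Fbxo32 (10.87 ± 0.23) and by Mstn, myostatin, which restrains muscle growth. Mstn varied between mice, at 10.78, 9.57 and 10.17 (mean 10.17 ± 0.60). Il6 (3.77 ± 0.28) and Fgf21 (5.0 ± 0.29) were not above background.

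Listed slow and fast fiber genes ordered the 3 mice differently. Both lists, of 15 genes each, were gathered after values had been seen, so their counts describe these genes and are no independent evidence of the order. All 15 slow fiber genes were above background. The highest of the 3 values was in WT replicate 2 in 14 of them, against 10.9% of all named genes above background. The exception was Casq2. The list counts Actn2, the alpha-actinin of all fibers, and the muscle gene Fabp3. It leaves out Pln of heart and slow muscle, which was highest in WT replicate 1 (7.37, 7.06 and 6.63). Tnnc1 read 8.54, 9.27 and 8.80, Mybpc1 read 10.88, 11.57 and 10.94 and Csrp3, a Z-disc protein of slow fibers, read 9.38, 10.01 and 8.88. The mean of the list was 9.02, 9.40 and 8.97 in WT replicates 1, 2 and 3. Fast fiber genes lay the other way: 15 of 15 were lowest in WT replicate 2, where the array as a whole held 70.7% of the genes with a mean of at least 12 at their lowest. Of the 15, 13 were highest in WT replicate 3, against 50% of all named genes with a mean of at least 12. The count of 13 became 8 with the arrays quantile normalized to each other and 2 with their medians set equal. The mean of the fast list was 13.09, 12.89 and 13.15. With quantile normalization 14 of the 15 slow genes were highest in WT replicate 2, against 15.6% of the genes above background, and with equal medians 12, against 6.3%. In RNA of a whole muscle, more slow fibers and more slow RNA per fiber cannot be told apart.

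The transcripts of the mitochondrial genome were also at their highest in WT replicate 2. Of 13 protein genes, 10 had a probe set of their own, in a list gathered after values had been seen. All 10 were highest in that mouse as deposited, 8 with quantile normalization and 6 with equal medians. As deposited, the share was 10.9% of named genes above background. It was 18.5% of named genes with a mean of at least 12, a group that holds most of these 10 genes itself. The mean of the list was 13.33, 13.52 and 13.19, and 9 of the 10 spanned less than 0.3 over the mice. ND6, the only one of them encoded on the other strand of that genome, read 10.20, 10.56 and 8.86 and was low in WT replicate 3.

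**Figure D4:**
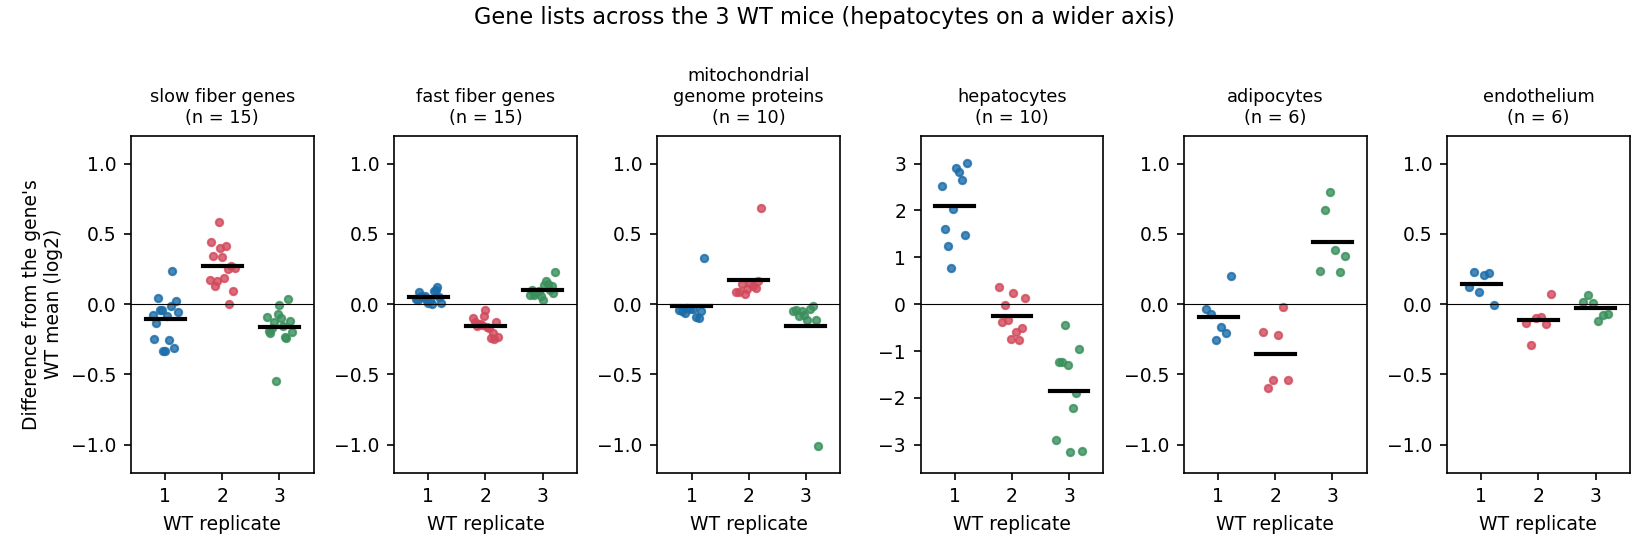
Difference of each gene from its own WT mean (y axis, log2) in WT replicates 1, 2 and 3 (x axis) for 6 gene lists, with 1 point per gene and a black bar for the list mean; the hepatocyte panel has a wider y axis. Slow fiber genes, except Casq2, and mitochondrial genome genes are highest in WT replicate 2 in the values as deposited, fast fiber genes lowest there, hepatocyte genes highest in WT replicate 1 and lowest in WT replicate 3, and adipocyte genes highest in WT replicate 3.

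Most genes varied little between mice. The median SD was 0.21, 1458 genes had an SD of at least 0.5, 137 (0.618%) an SD of at least 1 and 9 an SD of at least 2. Of the 137, 67 were above background. Most of the 137 followed one of 2 orders: 74 were highest in WT replicate 2 and lowest in WT replicate 1, and 45 were highest in WT replicate 1 and lowest in WT replicate 3. These counts rest on single mice: without WT replicate 3, 2855 genes had an SD of at least 0.5 and 344 of at least 1, and without WT replicate 1, 65 had an SD of at least 1.

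The widest spread belonged to liver genes. The gene with the highest SD among those above background was Serpina1c, an alpha-1-antitrypsin gene of the liver, at 9.19, 6.51 and 3.13 (mean 6.28 ± 3.04). It was followed by the major urinary protein genes Mup3, at 10.08, 7.74 and 4.12 (mean 7.32 ± 3.0), and Mup20, at 10.02, 6.91 and 4.51 (mean 7.15 ± 2.76), and by Alb, albumin, at 11.46, 9.31 and 6.04 (mean 8.94 ± 2.73). Each was highest in WT replicate 1 and lowest in WT replicate 3 with a span above 5. Next came Fabp1 (8.27, 6.23 and 3.90), the protease inhibitors Mug1 (9.06, 6.18 and 4.86) and Pzp (8.72, 6.05 and 5.16) and the plasma glycoprotein Ahsg (9.42, 7.11 and 5.89). The fibrinogen gene Fgb, the esterase Ces3a, the conjugating enzyme Ugt2b1, the urea cycle gene Cps1, the apolipoproteins Apoa2 and Apob and the tyrosine enzyme Tat completed the liver genes among the 20 most variable. This ranking took genes whose mean was above background, so a high value in WT replicate 1 alone could bring a gene into it. Pzp, Fgb (8.43, 5.66 and 5.10), Ces3a (8.13, 5.63 and 4.86) and Tat (7.85, 5.82 and 5.18) were above background in that mouse only. The other liver genes of the ranking were also above background in WT replicate 2. Without the limit on low signal, Serpina1d, the iron hormone gene Hamp and the fibrinogen gene Fgg joined the 10 most variable. Without WT replicate 1, 4 of the 20 most variable genes remained among the 20, and without WT replicate 3, 9 remained.

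All 10 of 10 listed hepatocyte genes were highest in WT replicate 1 and lowest in WT replicate 3, and did so under both other scalings. That order was held by 10.2% of named genes above background and by 10.8% of all named genes. Of the 10, 4 were not above background by their mean. The list was chosen with earlier results of these data known, so its count is no independent evidence of the order. The mean of the list was 8.82, 6.46 and 4.87. In WT replicate 3 the list lay below the background level of 6.12 except for Apoa1 (7.77, 6.67 and 6.56) and Apoa2 (9.50, 7.53 and 6.68), and Alb was at 6.04. Serpina1, Mup and Ugt2b genes have near-identical copies, so the signal may be shared among family members. The part of hepatocyte RNA in these values was not tested.

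**Figure D5:**
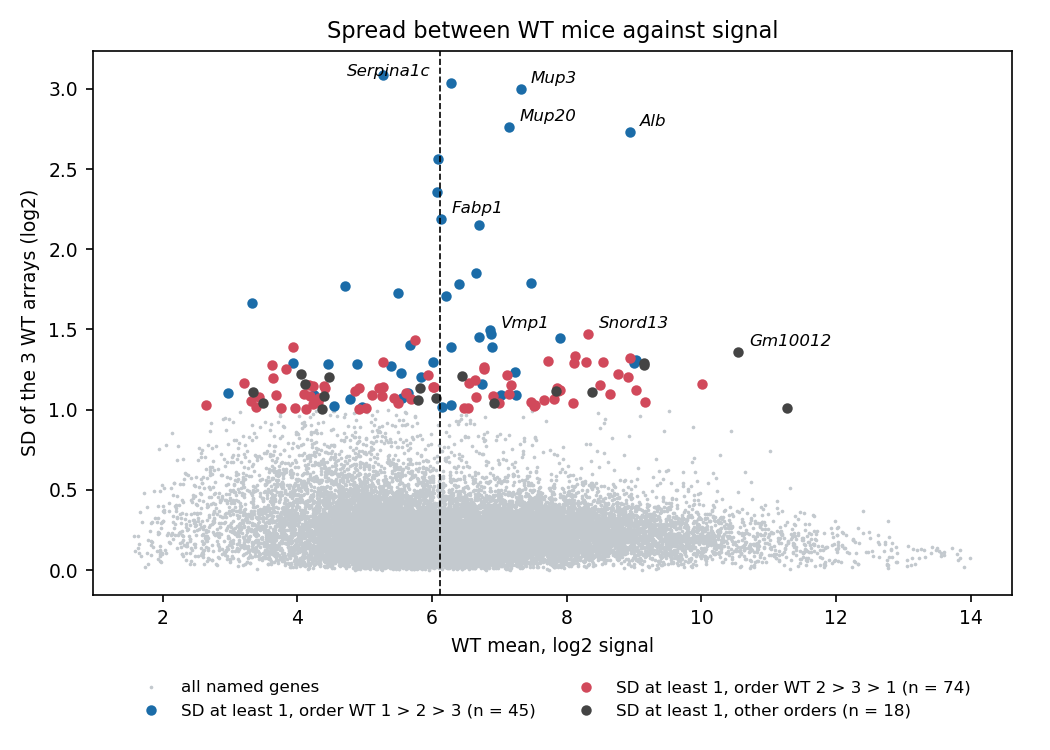
SD of the 3 WT arrays (y axis, log2) against WT mean (x axis, log2 signal) for all named genes, with the 137 genes of SD at least 1 coloured by the order of the mice and the background level of 6.12 dashed. Points with an SD above 2 are liver genes highest in WT replicate 1, while the 74 genes highest in WT replicate 2 and lowest in WT replicate 1 lie between 1 and 1.5.

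The other large group held many receptor genes of sensory neurons. Of the 74 genes with an SD of at least 1 that were highest in WT replicate 2 and lowest in WT replicate 1, 32 were chemosensory receptor genes, 15 of them vomeronasal type 1 receptors and 13 olfactory receptors. The 74 genes were 0.334% of all named genes, the 32 were 2.24% of the 1429 receptor genes and the 15 were 8.47% of the 177 vomeronasal type 1 receptor genes. Of the 74, 21 lay on chromosome 7, which holds a large cluster of vomeronasal type 1 receptor genes. They were 1.08% of its 1948 named genes, and 2 of them, 0.125% of 1596, were no receptor genes. Chromosome Y held 6 of its 17 named genes among the 74 and chromosome X 5 of 899 (0.556%). Astx5, from a testis gene family of the X chromosome with many copies, gave 7.51, 10.11 and 9.21 (mean 8.94 ± 1.32), and Gm20815, a predicted gene of chromosome Y, gave 6.87, 9.52 and 7.98 (mean 8.13 ± 1.33). Dim genes in general were highest in this mouse: 52.8% of named genes not above background had their highest value in WT replicate 2, and 79.4% of the 1105 olfactory receptor genes did. Snord13, a small nucleolar RNA, stood out further, at 7.30, 10.002 and 7.65 (mean 8.32 ± 1.47).

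Another group was low in WT replicate 3 alone. Among the 20 most variable genes these were Vmp1, a protein of autophagy (7.96, 7.46 and 5.20), and the predicted gene Gm10012 (11.10, 11.54 and 9.0). Single probe sets of abundant genes showed the same form while the brightest probe set of the same gene did not. Of 379 named genes with another probe set above background, 56 had another probe set at least 1 lower in WT replicate 3 than the mean of the other 2 mice while their brightest probe set differed by less than 0.5, and 0 had one at least 1 higher. For WT replicate 1 these counts were 2 lower and 35 higher, and for WT replicate 2 they were 0 lower and 9 higher. The counts are not separate, since each array was set against the mean of the other 2. A probe set that is low in WT replicate 3 thereby reads as higher in the other mice. The same probe set of Rhoa was counted as lower in WT replicate 3 and as higher in WT replicates 1 and 2. The following were picked by size after the values were seen. Rhoa, a small GTPase of the cytoskeleton, read 11.39, 11.13 and 11.21 on its brightest probe set and 10.82, 10.69 and 7.06 on another. The lipase gene Lpl read 11.59, 11.95 and 11.55 on its brightest probe set, against 9.27, 9.61 and 6.94 on another. For Glul, glutamine synthetase, the brightest gave 11.52, 11.24 and 11.43 and another 9.85, 9.78 and 7.40. For these genes the level in WT replicate 3 depends on which probe set is read.

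The choice of probe set mattered for levels as well. For the 1082 named genes with several probe sets, the brightest and the dimmest lay a median of 1.38 apart, 351 were at least 2 apart and 38 at least 5 apart. Of the 817 such genes whose brightest probe set was above background, 473 (57.9%) had a dimmest one that was not. The widest gap was that of the ribosomal gene Rps26, at 7.50. With 1 probe set per gene the 22180 means therefore describe the brightest one.

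Other cell types of the muscle were measured through markers. All 6 endothelial genes were above background, with Cdh5, the cadherin of vessel walls, brightest at 10.76, 10.51 and 10.65 (mean 10.64 ± 0.13). All 6 fibroblast genes were above, led by the matrix proteoglycan gene Dcn at 12.79, 12.76 and 12.77 (mean 12.77 ± 0.01). The 6 macrophage genes (6.45 to 9.26, brightest Lyz2), the 5 smooth muscle genes (brightest Acta2, 10.61 ± 0.15) and the 3 measured Schwann cell genes (brightest Pmp22, 9.62 ± 0.16) were above background too. Fewer cells of a type and less RNA per cell cannot be told apart in such samples.

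The 6 measured adipocyte genes had a mean above background and were all highest in WT replicate 3 under each of the 3 scalings, against 27.3% of named genes above background as deposited. Fabp4 read 11.97, 11.82 and 12.24, the adipokine Retn 8.14, 7.62 and 8.88 and the lipid droplet gene Cidec 7.26, 6.97 and 8.31. Adipoq, which defines fat cells, read 6.33, 6.51 and 6.76. The mean of the list was 7.80, 7.54 and 8.34. Satellite cells, the stem cells of muscle, showed Pax7 at 7.03, 6.57 and 7.03 (mean 6.88 ± 0.27), and 2 of their 4 markers were above background.

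Markers of some cell types were at background. None of the 5 measured T and B cell genes was above it, with values between 4.81 and 5.46, and none of the 5 heart muscle genes. Of the neuron genes 1 of 5 was above (Rbfox3, 6.60 ± 0.14) and of the keratinocyte genes 1 of 3 (Krt10, 6.53 ± 0.07). Of 7 red blood cell markers 1 had a probe set of its own, Slc4a1, which was not above background (5.95 ± 0.05). Globin signal was read on probe sets shared by near-identical genes. The brightest of Hba-a1 and Hba-a2, the alpha-globin genes, gave 11.85, 11.91 and 12.43 (mean 12.06 ± 0.32), and the brightest of Hbb-b1, Hbb-b2 and Hbb-bs, the beta-globin genes, gave 9.85, 9.28 and 6.59 (mean 8.57 ± 1.74). Both were above background in all 3 mice, and the beta-globin one was lowest in WT replicate 3. Another alpha-globin probe set had a mean of 7.00 and the other 2 of beta-globin were not above background, at 5.55 and 4.90. All of these were highest in WT replicate 3, as was the brightest alpha-globin one. The other beta-globin ones read 5.48, 5.20 and 5.97, and 4.63, 4.97 and 5.10. The beta-globin level in WT replicate 3 therefore depends on which probe set is read.

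Whole gene classes lay at either end of the scale, beside the 50.2% of all named genes above background. Machinery of every cell was mostly above it: 68 of 71 mitochondrial ribosomal protein genes, 34 of 38 proteasome subunit genes and 50 of 66 cytosolic ribosomal protein genes. The cytosolic ribosomal class ran between 3.13 and 13.15, and its dimmest member was Rpl32l, named as a copy of Rpl32. At the low end were keratins, with 7 of 49 above background, interleukins, with 8 of 33, and cytochrome P450 genes, with 15 of 79. The brightest of these classes were Krt8 (6.77 ± 0.18), Il33 (7.37 ± 0.20) and Cyp2e1, an enzyme of liver and fat, at 10.18, 9.09 and 10.40 (mean 9.89 ± 0.70). Cyp2e1 was lowest in WT replicate 2 and did not follow the order of the hepatocyte list.

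Most microRNA genes were not above background. Of 483 microRNA genes 96 were above background, against 59 of 79 small nucleolar RNA genes. None of the 7 muscle microRNA genes, a list gathered after values had been seen, was above background, although these microRNAs are known as abundant in muscle. Mature sequences of RefSeq are shown for members that belong with fiber type, with the seed (bases 2 to 8) in capitals.
miR-206-3p: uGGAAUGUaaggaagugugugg
miR-133b-3p: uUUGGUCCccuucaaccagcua
miR-208b-3p: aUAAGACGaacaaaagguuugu
miR-499-5p: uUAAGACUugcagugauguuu

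The seeds of miR-208b and miR-499 both start with UAAGAC. Mir208b lies within the slow myosin gene Myh7 and Mir499 within Myh7b. Mir208b gave 2.16, 2.27 and 1.82 (mean 2.08 ± 0.23) while Myh7 was at 8.18 ± 0.36, and Mir499 gave 4.04, 4.60 and 3.83 (mean 4.16 ± 0.40) while Myh7b was at 6.11 ± 0.12. Mir206, which fibers of slow muscle carry, gave 2.61, 2.07 and 2.74 (mean 2.47 ± 0.36), and Mir133b gave 5.28, 6.15 and 5.76 (mean 5.73 ± 0.44). Total RNA was labelled and the mature microRNA was not measured apart from its precursor.

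At the other extreme, some genes hardly differed between the mice. The 10 lowest SDs among genes above background were those of Ptprf, Gle1, Ttll4, Zfp423, Nectin3, Qtrt2, Galk2, Scube3, Fbxw7 and Ap5b1, with Ptprf, a receptor phosphatase, at 6.81, 6.81 and 6.81 and Gle1, a factor of mRNA export, at 9.12, 9.13 and 9.13. With 3 values per gene and 11126 genes, the lowest SDs are a selection. Among genes with a mean of at least 10, the lowest SDs were those of Zfp106, an RNA-binding zinc finger protein (11.33, 11.31 and 11.32), Retreg1, a receptor of endoplasmic reticulum turnover (10.72, 10.70 and 10.72), and Dcn. Neb, Idh3b of the citric acid cycle (11.83, 11.79 and 11.83) and Aqp1, the water channel of capillaries (10.76, 10.81 and 10.79), also stayed within 0.05. Genes often used as references were less steady: Actb read 9.47, 8.96 and 9.86 and Hprt 7.67, 7.01 and 7.42, while Gapdh read 13.45, 13.28 and 13.48 and Tbp 7.72, 7.47 and 7.66. Of 10 such genes measured, 9 were lowest in WT replicate 2.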

How the data were processed

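Gastrocnemius RNA of the 3 WT mice was read on Affymetrix Mouse Gene 2.0 ST arrays. The authors deposited log2 values, summarized and normalized between arrays by RMA per the labels, and these were used as deposited. The ranges of the WT arrays nevertheless differed. Symbols came from the platform's annotation table, and 21994 of 22180 named genes matched RefSeq by Entrez identifier. Probe sets with several symbols or none were left out. The background level was the 95th percentile of the WT means of 1429 receptor genes. No test was made, since 1 group was described. Means, SDs and ranks were computed with Python 3.11.15, pandas 2.3.3 and NumPy 2.4.6, and figures with Matplotlib 3.10.9. The steps were tested on simulated data. Named genes were the 30 brightest, the 20 most variable above background and 10 most variable of all, the 10 least variable above background, and the brightest, dimmest and defining members of the gene lists. The lists held 400 genes, of which 352 were measured. The members and lists were chosen with earlier results of these data known. The lists of slow fiber, fast fiber, mitochondrial genome, microRNA and housekeeping genes, and any other gene named, were chosen after values had been seen. Alternatives were quantile normalization, equal medians, the mean over probe sets, other background levels, a limit on low signal and leaving out each mouse.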

Additional observations from a re-analysis of the deposited data

How the results depend on the processing

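Under quantile normalization, equal medians and the mean over probe sets of a gene, 10974 to 11126 genes were above background, 1174 to 1574 had an SD of at least 0.5 and 116 to 129 an SD of at least 1. The order of the mice moved more: 13 of 15 fast fiber genes were highest in WT replicate 3 as deposited, 8 with quantile normalization and 2 with equal medians, and of 10 mitochondrial genome genes 10, 8 and 6 were highest in WT replicate 2. With the 99th percentile of the receptor genes as background level, at 7.21, 6285 genes were above it. With olfactory receptor genes alone, an alternative chosen after seeing the data, 11347 were. Among genes above background only, 402 had an SD of at least 0.5 and 67 an SD of at least 1. Leaving out 1 mouse at a time gave 9961 to 12044 genes above background, 1066 to 2855 with an SD of at least 0.5 and 65 to 344 with an SD of at least 1. The 2855 and 344 were found without WT replicate 3 and the 65 without WT replicate 1. Of the 20 most variable genes, 4 to 16 were shared, with 4 shared without WT replicate 1 and 9 without WT replicate 3. Of the 30 brightest, 29 to 30 were shared, and 26 with the mean over probe sets, where Ckm, Gapdh, Eif4a1 and Car3 left the 30. Of the 35 pairs, 34 kept the muscle, fast or adult member brighter under each alternative, and the mean over probe sets moved 5 differences by over their SD: Tpm1 over Tpm3 to 3.06, Ryr1 over Ryr3 to 4.75, Ckm over Ckb to 3.16, Pgam2 over Pgam1 to 3.00 and Slc2a4 over Slc2a1 to 4.08. In each of these 5 pairs 1 member had a dimmer probe set that entered its mean. Their means were 6.71 for Tpm3, 7.70 for Ryr1, 7.94 for Ckm, 6.99 for Pgam1 and 5.84 for Slc2a1. The cause of the other moves was not tested, apart from fewer arrays or genes entering. No paired analysis was possible because 1 group was described and no result comes from a test.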

Other observations

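Of 16 measured genes of the circadian clock 15 were above background, beside 50.2% of all named genes, with a list median of 7.81. Bhlhe40 was the brightest at 9.80 ± 0.19, and Npas2 was not above background (5.75 ± 0.12). Dbp, whose transcript swings strongly over the day, read 9.36, 8.76 and 9.43, Nr1d1, a repressor of the clock, 8.41, 7.77 and 8.24 and Arntl, which encodes the activator BMAL1, 7.84, 7.50 and 7.91. Of the clock genes 14 were lowest in WT replicate 2, as most genes of this signal were. Immediate early genes, which rise within minutes of stress or handling, were mixed: 16 of 21 were above background, with Klf6 at 9.81, 9.91 and 10.32 (mean 10.01 ± 0.27) and Nr4a1 at 10.22, 9.44 and 10.19 (mean 9.95 ± 0.44), while Fos (5.95 ± 0.48), Egr2 (5.93 ± 0.36) and Ier2 (5.21 ± 0.19) were not.

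Stress genes were all above background, 10 of 10 measured, beside 50.2% of all named genes. The constitutive chaperone Hspa8 was brightest at 12.36, 12.32 and 12.28 (mean 12.32 ± 0.04), the small heat shock protein Hspb7 of striated muscle was at 10.64 ± 0.09 and the metallothionein genes Mt2 and Mt1 were at 9.12 ± 0.04 and 8.53 ± 0.15. The inducible gene Hspa1a read 8.14, 8.83 and 8.11 and was highest in WT replicate 2. The Y-linked genes Eif2s3y (8.10 ± 0.04), Uty (8.05 ± 0.04) and Kdm5d (7.29 ± 0.13) were above background in each mouse and Xist (4.89 ± 0.17), which female tissue expresses, was not. The mice are labelled male.

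Probe sets without a gene symbol held signal too. Of the 16004, 4596 (28.7%) had a mean above the background level and 81 had a mean of at least 12, and 658 had an SD of at least 1, against 137 of the 22180 named genes. Of the 1820 probe sets with several symbols, 1165 (64%) were above it. What these probe sets detect was not analysed here.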
